A study of Mus musculus with 2 samples.

Results

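The genes described here mark smooth muscle and the mural cells of small vessels in skin. They were Acta2, Actg2, Myh11, Tagln, Cnn1, Smtn, Des, Myocd, Rgs5 and Notch3, chosen by name with earlier results of these data known. Every probe set whose platform symbol was one of these 10 was taken. That gave 19 of the 45101 probe sets on the array, and 10 of the 18194 genes it measured. Expression was compared between the bulge and the hairshaft of the hair follicle of 21-day-old C57Bl6 mice, both cut by laser from eosin-stained frozen skin sections, with 1 array for each structure. No genotype or treatment distinguished the structures. How the regions were recognised, and whether tissue of several animals was pooled, are not given in the labels. With 1 array per structure no test was possible, so every difference below lacks a replicate check and describes these arrays only.

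The arrector pili is a small smooth muscle that inserts on the follicle at the bulge and raises the hair when sympathetic nerves fire. Pericytes and vascular smooth muscle cells, together called mural cells, wrap the dermal capillaries and arterioles. Both kinds of cell contract with smooth muscle actins and myosin, and serum response factor with its partner myocardin switches on many of these genes through a DNA element called the CArG box. Fibroblasts of the follicle's dermal sheath also make alpha smooth muscle actin, and striated muscle shares desmin, so several genes of the set belong to more than 1 cell type.

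Values are log2 summaries made with GCRMA, and differences are bulge minus hairshaft on that log2 scale. The floor, the level below which a value was taken as background, was 2.68 on both arrays. It was set from 80 probe sets of odorant and pheromone receptors, olfactory and vomeronasal, as their 95th percentile. Each gene is represented by its brightest probe set, by the mean over the arrays. Values of different probe sets are not comparable as levels, so each single gene was compared only with itself. Summed linear signals of marker lists, given further on, are weighted towards bright probe sets and serve only as a description.

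The labels were first set against marker genes. On the bulge array, 9 of 10 bulge stem cell markers were higher by 2-fold or more. The largest difference was that of Lhx2, at 9.23 in the bulge, against 4.67 in the hairshaft. The exception was Krt15, at 13.99 in the bulge, against 13.68 in the hairshaft, 1.24-fold apart. Of 14 hair shaft markers, 7 were at or below the floor on the hairshaft array, and 9 were higher by 2-fold or more in the bulge and none was so in the hairshaft, so hair keratins did not mark the array labelled hairshaft. Of 10 keratinocyte markers, none was 2-fold apart. Over all genes above the floor, 11.4% were higher by 2-fold or more in the bulge and 4.91% in the hairshaft. Skeletal muscle markers stood far apart, and they are given beside the results they accompany.

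Of the 10 genes, 7 were higher by 2-fold or more in the bulge and none was so in the hairshaft; of all 13329 genes above the floor, 11.4% passed this limit towards the bulge and 4.91% towards the hairshaft. The 7 were Des, Rgs5, Actg2, Tagln, Myh11, Acta2 and Cnn1, with differences between 1.20 and 6.49 (log2). The other 3, Smtn, Myocd and Notch3, were under 2-fold apart. All 10 were above the floor on both arrays, so none entered through the bulge alone, and each had the higher value in the bulge. Their median difference was 1.60, against 0 over all genes above the floor. Des and Rgs5 were also past 8-fold, a limit that 3.02% of genes passed in the bulge direction. In tissue pieces of mixed cells, fewer cells of a type and less RNA per cell cannot be told apart.

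**Figure D1:**
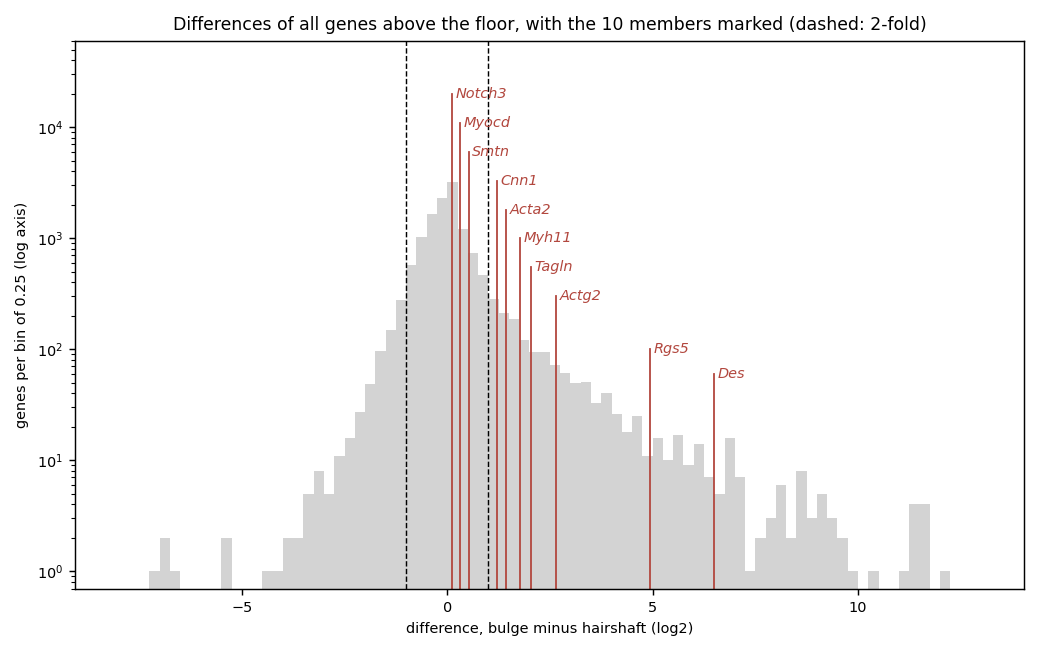
Histogram of the difference between bulge and hairshaft (log2, x axis) for all 13329 genes above the floor, with the number of genes per bin on a log axis; vertical lines mark the 10 members and dashed lines the 2-fold limits. Notch3, Myocd and Smtn lie inside the 2-fold limits, and Rgs5 at 4.93 and Des at 6.49 lie far to the right.

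By probe set the picture was the same in direction. Of the 19 probe sets, 15 were above the floor on at least 1 array and 14 on both. Of the 15, 11 were higher by 2-fold or more in the bulge, a limit passed by 9.52% of the 28721 probe sets above the floor. None was 2-fold higher in the hairshaft (7.37% of all). Rgs5 probe set 1420942_s_at was above the floor in the bulge alone, so it could only be called towards the bulge, and it enters the 11 with a lower bound. The remaining 4 of the 19, 1 each for Acta2, Myh11, Des and Myocd, were under the floor on each array, with identical values on both. Those 4 gave no measurable signal for their gene on these arrays. Identical values were given to 14004 of 16380 probe sets under the floor on each array and to 3289 of 28721 above it, so an identical low value is not read below as equal expression.

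**Figure D2:**
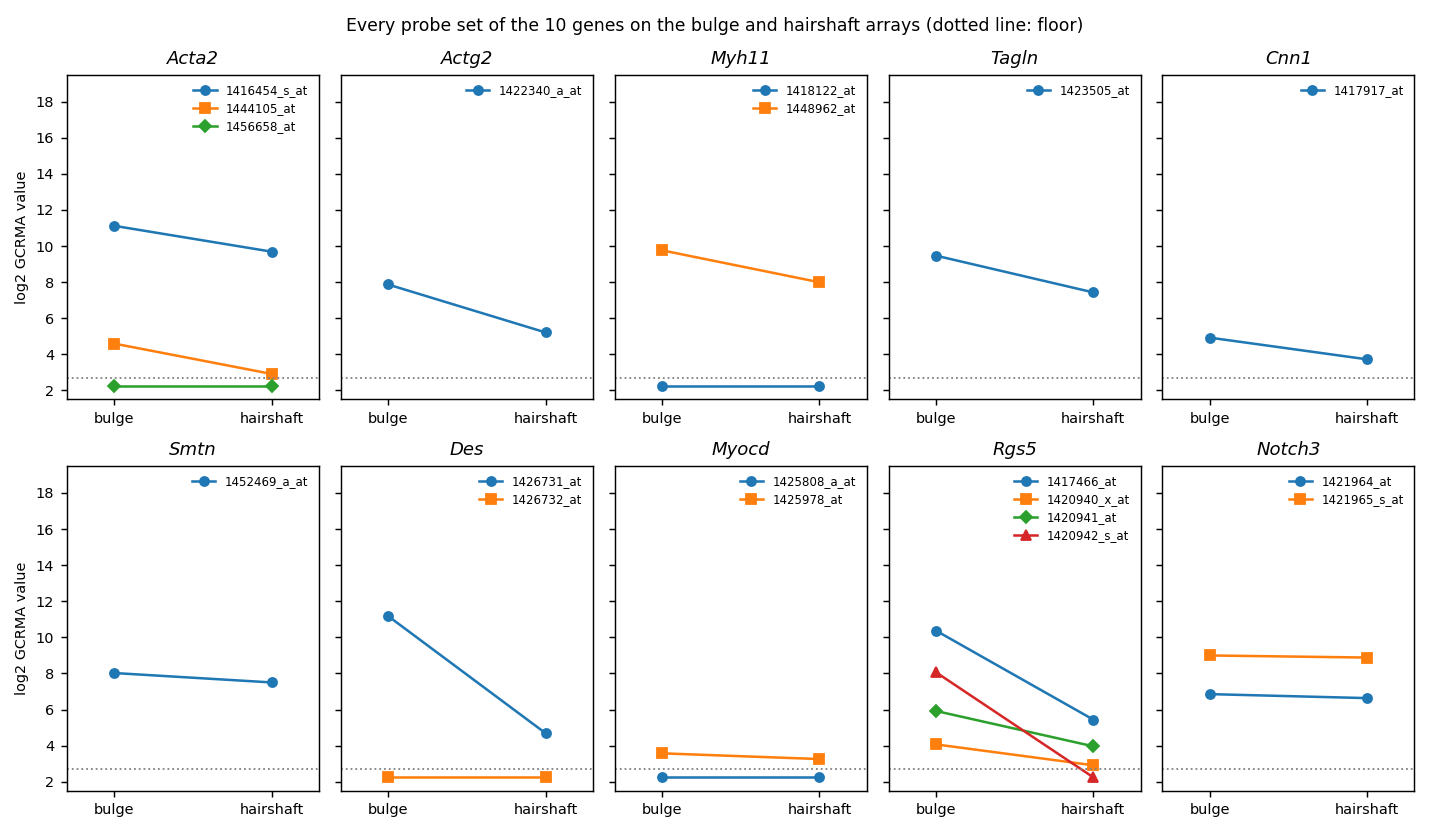
Log2 GCRMA value (y axis) of each of the 19 probe sets on the bulge and the hairshaft array, 1 panel per gene; lines join the values of 1 probe set, and the dotted line is the floor of 2.68. The lines slope down to the hairshaft for Acta2, Actg2, Myh11, Tagln, Cnn1, Des and Rgs5, are nearly level for Notch3, and lie flat below the floor for 4 probe sets.

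The actins came first among the contractile genes. Acta2, alpha smooth muscle actin, which builds the thin filaments of vascular and other smooth muscle, had 11.12 in the bulge, against 9.69 in the hairshaft by its brightest probe set, 1416454_s_at. The difference was 1.43, a 2.70-fold higher value in the bulge. The suffix _s_at marks a probe set whose probes can match transcripts of several genes, which matters in a family as alike as the actins. A second probe set for Acta2, 1444105_at, without that suffix, had 4.60 in the bulge, against 2.91 in the hairshaft, a 3.21-fold difference in the same direction and 0.25 (log2) away from the first. Its hairshaft value stood just above the floor. Actg2, gamma smooth muscle actin, best known from visceral smooth muscle, had 7.87 in the bulge, against 5.21 in the hairshaft. Its difference of 2.66 (6.30-fold) was larger than that of Acta2, but it rests on a single probe set.

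Start regions are shown for Acta2, the classical target of serum response factor, and for Des (desmin), the member with the largest difference. RefSeq start regions of GRCm38.p6 were at hand for 6 of the 10 genes, and Tagln, Myh11, Actg2 and Myocd had no entry. Each region ran from 250 bases before to 50 bases after the annotated start. Distances below count from that annotated start, which was not checked against measured starts of transcription. The exact CArG box, searched on both strands, was in none of the 6 and in 1.63% of all 32851 regions. With at most 1 G or C allowed inside the box, Acta2 held 2 copies, beginning 84 and 34 bases before the start, and the other 5 none. At least 1 such copy was in 9.98% of all regions and at least 2 in 0.822%. This looser form was chosen after the exact search. The hexamer CAGCTG, an E-box that myogenic factors can bind and its own reverse complement, was in 3 of the 6 (Acta2, Des and Rgs5) and in 16.3% of all; in Des it began 36 bases before the start. These matches are letters in a window, not measured binding sites. In the first sequence, at chr19:34255324-34255623 on the minus strand, capitals mark the looser CArG boxes; in the second, at chr1:75360042-75360341 on the plus strand, capitals mark the E-box hexamer.
Acta2: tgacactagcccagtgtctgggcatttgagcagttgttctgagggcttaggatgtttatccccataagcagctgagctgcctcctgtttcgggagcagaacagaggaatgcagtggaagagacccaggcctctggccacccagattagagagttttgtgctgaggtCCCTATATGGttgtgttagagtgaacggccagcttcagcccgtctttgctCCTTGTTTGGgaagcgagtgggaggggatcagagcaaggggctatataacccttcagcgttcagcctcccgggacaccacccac
Des: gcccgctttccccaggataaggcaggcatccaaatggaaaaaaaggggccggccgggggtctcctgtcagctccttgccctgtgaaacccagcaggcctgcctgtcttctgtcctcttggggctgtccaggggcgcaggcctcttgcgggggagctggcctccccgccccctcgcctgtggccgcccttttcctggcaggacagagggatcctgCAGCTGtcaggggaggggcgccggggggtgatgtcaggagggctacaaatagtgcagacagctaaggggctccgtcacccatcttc

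The rest of the actin family differed widely. Acta1, the skeletal muscle actin, had 15.15 in the bulge, against 3.11 in the hairshaft. Actc1, cardiac actin, had 4.34 in the bulge, against 3.94 in the hairshaft, under 2-fold apart. The cytoplasmic actins, which every cell uses, were close on both arrays, Actb at 14.42 in the bulge, against 14.53 in the hairshaft and Actg1 at 13.93 in the bulge, against 13.99 in the hairshaft, and the sign of these small differences turned with the scaling. The array's control probe sets for Actb differed by position in the transcript: the value above is that of the 3′ end, whereas the 5′ end had 13.81 in the bulge, against 12.92 in the hairshaft. The 3′ value exceeded the 5′ value by 0.61 (log2) in the bulge, against 1.62 in the hairshaft, and for Gapdh by -0.14 in the bulge, against 0.16 in the hairshaft. This gap is a common sign of RNA quality and amplification, and its part in the members' differences was not tested. Unlike Actb at its 3′ end, Gapdh was higher in the bulge at each position. Its difference was 1.52 (log2) at the 3′ end, 1.81 in the middle and 1.82 at the 5′ end. Of the members past 2-fold, Acta2 at 1.43 and Cnn1 at 1.20 lay below all of these values. Myh11 at 1.77 lay below those of the middle and the 5′ end. By brightest probe set, the smooth muscle actins lay between the cytoplasmic actins and Acta1 in the size of their difference. Actin transcripts are similar in sequence, and whether Acta1 RNA contributed to the signal of the Acta2 and Actg2 probe sets was not tested.

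Myh11, the smooth muscle myosin heavy chain and the motor of the contractile filament, had 9.76 in the bulge, against 7.99 in the hairshaft, a 3.41-fold difference. With the mean of its probe sets, 1 of which was below the floor, the difference was 0.88 (log2), under 2-fold. Of the other myosin heavy chains of this class, the non-muscle chain Myh10 had 6.58 in the bulge, against 5.47 in the hairshaft, a difference of 1.11. Myh9, the main non-muscle chain, and Myh14 differed by 0.03 and 0.16.

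Proteins that bind the thin filament followed. Tagln (transgelin, also SM22-alpha), an actin-bundling protein and early smooth muscle marker, had 9.47 in the bulge, against 7.43 in the hairshaft. The difference was 2.04, or 4.11-fold. Cnn1, calponin, which restrains myosin's pull on actin, had 4.93 in the bulge, against 3.72 in the hairshaft, a 2.30-fold difference. Its values were near the floor, and with the floor at the 99th percentile of those receptors its difference was 0.71, under 2-fold. Smtn, smoothelin, a protein of fully contractile smooth muscle, had 8.02 in the bulge, against 7.50 in the hairshaft. At 1.44-fold, it was under the limit.

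Relatives of these genes that are found in many cell types lay close to 0 or below it. Cnn2 and Cnn3, calponins of non-muscle cells, were 0.58 and 0.40 (log2) lower in the bulge, and Tagln2, the broadly expressed transgelin, was 0.24 higher. Tagln3, a neuronal relative, had an identical 2.71 on both arrays, just above the floor. The smoothelin-like genes moved much further than Smtn itself. Smtnl1 had 8.19 in the bulge, against 2.79 in the hairshaft, and Smtnl2 had 7.45 in the bulge, against 2.85 in the hairshaft, 42.2-fold and 24.3-fold apart. Smtnl1 is known from skeletal as well as smooth muscle.

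**Figure D3:**
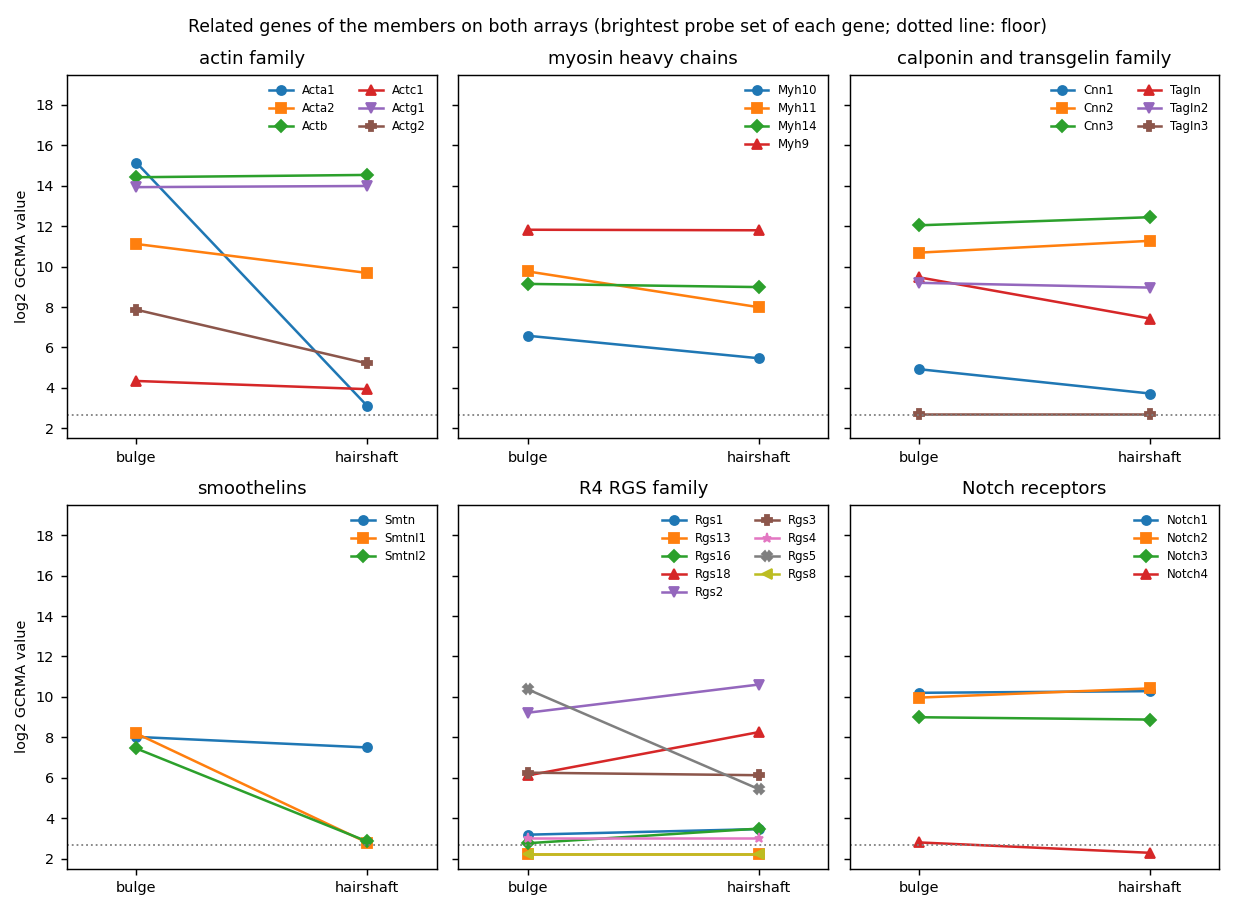
Log2 GCRMA values (y axis) of the members and their relatives on the bulge and hairshaft arrays in 6 gene families, 1 line per gene from its brightest probe set, with the floor as a dotted line; heights of different genes are not comparable. Acta1, Smtnl1, Smtnl2 and Rgs5 fall steeply towards the hairshaft, whereas Actb, Actg1, Myh9 and Notch1 are nearly level and Rgs2 and Rgs18 are higher in the hairshaft.

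Des, desmin, the intermediate filament that ties contractile units together in smooth, skeletal and cardiac muscle, showed the largest difference of the 10. It had 11.18 in the bulge, against 4.69 in the hairshaft, an 89.9-fold difference that ranked 76 among 13329 genes. Its second probe set, made for the same source sequence, was under the floor on each array at 2.24. With the mean of both probe sets the difference was 3.25. Synm, synemin, a partner of desmin, was 3.67-fold higher in the bulge, at 8.65 against 6.77 in the hairshaft. Vim, vimentin, the filament of mesenchymal cells generally, was at 13.39 in the bulge, against 13.19 in the hairshaft. The nerve filament Prph stood near the floor, at 3.05 in the bulge, against 2.94 in the hairshaft. Nestin (Nes) had an identical 3.67 on both arrays.

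Markers of skeletal muscle were also higher in the bulge. Of 18 measured, 16 were above the floor on at least 1 array, and 10 of these on both. All 16 were higher by 8-fold or more in the bulge, against 3.02% of all genes above the floor, with a median difference of 10.67. Those above the floor in the bulge alone enter with a lower bound of their difference. The list's summed linear signal was 198579 in the bulge, against 119.8 in the hairshaft. On the hairshaft array 8 of the 18 were at or below the floor, so that sum includes background. The differences ran from 6.13 for Cacna1s to 12.04 for Acta1. The myogenic regulators Myod1 and Myog were under the floor on each array. The part of skeletal muscle RNA in the Des value was not tested. With Des left out, which changes no other gene's value, 6 of 9 were higher by 2-fold or more in the bulge and the median was 1.43. This alternative was chosen after seeing the data, and the part of skeletal muscle RNA in the other 9 was not tested. Of 11 markers of cardiac muscle, 8 were under the floor on each array, including Myh6, Myl7 and Nppa.

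Myocd, myocardin, the coactivator of serum response factor that directs the smooth muscle programme, was barely above the floor. It had 3.57 in the bulge, against 3.26 in the hairshaft, 1.25-fold apart, and its second probe set was below the floor. With the 99th percentile floor it was not above the floor on either array, so its level could not be compared. Its relatives Mrtfa and Mrtfb, which are made in many cells, differed by 0.17 and 0.34. Srf itself had 7.07 in the bulge, against 7.11 in the hairshaft, a difference whose sign turned with the scaling.

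Among 19 regulators linked to serum response factor, myocardin or mural cell identity, 17 were above the floor. Of these, 5 were higher by 2-fold or more in the bulge and none was so in the hairshaft, against 11.4% and 4.91% of all genes. The median was 0.17. Mef2c, a muscle transcription factor of striated and smooth muscle and endothelium, had 9.20 in the bulge, against 3.49 in the hairshaft. Fhl1, a LIM protein abundant in skeletal muscle, had 13.04 in the bulge, against 7.99 in the hairshaft. Gata6, found in vascular smooth muscle and in the upper follicle, was 7.92-fold higher, and Prrx1, a mesenchymal homeobox factor, 3.19-fold. The fifth was Hey1, a Notch target, at least 2.75-fold higher; it was not above the 99th percentile floor and differed by 0.59 (log2) after 16 was added to the linear values, and the count was 4 under each of these. With quantile normalization, 1 regulator, Fhl2 at -1.01, was past 2-fold in the hairshaft. None of the 5 is limited to smooth muscle.

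Rgs5, a brake on G protein signalling that marks pericytes and arteriolar muscle, was the member with the most probe sets, and all 4 were higher in the bulge. The brightest, 1417466_at, had 10.37 in the bulge, against 5.44 in the hairshaft, a 30.6-fold difference that ranked 152 among all genes above the floor. Probe set 1420942_s_at had 8.07 in the bulge, against 2.24 in the hairshaft, below the floor, and so was at least 42.0-fold higher in the bulge. Probe sets 1420941_at and 1420940_x_at differed less, by 1.96 and 1.16 (log2), with 5.92 and 4.07 in the bulge and 3.96 and 2.91 in the hairshaft. The 4 agreed in direction and spanned 4.24 log2 units in size. The mean of the 4 gave 3.47.

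Other members of the same RGS subfamily went elsewhere. Rgs18, known from platelets and myeloid cells, was 4.42-fold and Rgs2, which dampens vasoconstrictor signals, 2.63-fold higher in the hairshaft. For Rgs4, also reported in pericytes, the brightest probe set had an identical 3.03 on both arrays, whereas another had 3.73 in the bulge, against 2.23 in the hairshaft, below the floor. By brightest probe set, of 7 subfamily genes above the floor, Rgs5 was the only gene higher by 2-fold or more in the bulge. Among all genes above the floor, 11.4% passed this limit. Rgs1, Rgs3 and Rgs16 were under 2-fold apart, and Rgs8 and Rgs13 were under the floor on each array.

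Notch3, the receptor through which endothelium instructs arterial smooth muscle and pericytes, was nearly level. Its probe set 1421965_s_at had 9.00 in the bulge, against 8.88 in the hairshaft, and 1421964_at had 6.85 in the bulge, against 6.63 in the hairshaft. The differences of 0.12 and 0.22 were the smallest among the members' probe sets above the floor. Notch1 and Notch2, receptors of keratinocytes and many other cells, differed by -0.08 and -0.46, the sign for Notch1 turning with the scaling, and Notch4, an endothelial receptor, had 2.80 in the bulge and was under the floor in the hairshaft at 2.29. The difference of Notch4 is thus only a lower bound, and the other Notch receptors were under 2-fold apart. Heyl and Hey2, Notch targets of mural cells, were just above the floor, with identical values of 2.76 and 2.87 on both arrays.

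Most genes of a wider list of contractile smooth muscle genes were also higher in the bulge. Like the members, the list was chosen with earlier results of these data known, so it is no independent support for the direction. Of 25 measured, all above the floor, 15 were higher by 2-fold or more in the bulge and none was so in the hairshaft. Over all genes above the floor, these shares were 11.4% and 4.91%. The list's median difference was 1.88. The differences ran from -0.28 to 8.27. Myl9, the smooth muscle regulatory light chain, had 10.05 in the bulge, against 7.87 in the hairshaft. Mylk, the kinase that starts contraction by phosphorylating that light chain, was 4.06-fold higher, Lmod1, a nucleator of actin filaments, 3.94-fold and Cald1, caldesmon, 3.09-fold. The 4 with the largest differences were Hspb6 at 309-fold, Hspb7 at 125-fold, Pdlim3 at 122-fold and Pdlim7 at 36.8-fold, all of which are also made in striated muscle. The tropomyosins Tpm1 and Tpm2, shared with skeletal muscle, were 13.7-fold and 10.3-fold higher. Aoc3, an amine oxidase of smooth muscle and fat, differed by 4.51, Csrp1 by 0.88 and Pcp4 by 0.72. Kcnmb1, the smooth muscle subunit of a calcium-activated potassium channel, had an identical 3.01 on both arrays, and Ppp1r14a, an inhibitor of myosin phosphatase, differed by 0.12.

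Genes of relaxation and tone were divided. Of 13 measured, 11 were above the floor, 4 higher by 2-fold or more in the bulge and 1, Rgs2, in the hairshaft. The shares of all genes were 11.4% and 4.91%. Prkg1, the cGMP-dependent kinase that relaxes smooth muscle, had 7.76 in the bulge, against 3.77 in the hairshaft. Gucy1a1, a subunit of the nitric oxide receptor that makes cGMP, had 6.35 in the bulge, against 2.81 in the hairshaft. Agtr1a, an angiotensin receptor, and Kcnma1, a potassium channel, were 4.22-fold and 4.06-fold higher. The alpha-adrenergic receptor Adra1b and the muscarinic receptor Chrm3 did not rise above the floor on the bulge or the hairshaft array. The list's median was 0.54, and with the 99th percentile floor 2 of its genes were higher by 2-fold or more in the bulge.

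Pericyte genes were also divided. Of 17 markers measured, 16 were above the floor. Of these, 7 were higher by 2-fold or more in the bulge and 2 in the hairshaft, against 11.4% and 4.91% of all genes. The median was 0.70. Abcc9, a subunit of the pericyte potassium channel, had 8.99 in the bulge, against 4.42 in the hairshaft, and its channel partner Kcnj8 had 5.33 in the bulge, against 3.24 in the hairshaft. Cspg4, the proteoglycan NG2, was 15.4-fold higher, Steap4, a metalloreductase also made by fat cells, 21.5-fold and Mcam, an adhesion molecule shared with endothelium, 7.27-fold. Pdgfrb, the receptor that recruits pericytes and is also on fibroblasts, had 9.47 in the bulge, against 8.71 in the hairshaft, a 1.70-fold difference. The markers higher in the hairshaft were Ndufa4l2 at 2.71-fold and Zic1 at 2.41-fold. The pericyte marker Higd1b stood near the floor, at 2.97 in the bulge, against 2.85 in the hairshaft, and Cox4i2 had an identical 3.12 on both arrays. Notch3 and Pdgfrb thus lay under 2-fold on the arrays where Rgs5, Abcc9 and Cspg4 lay past 8-fold.

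**Figure D4:**
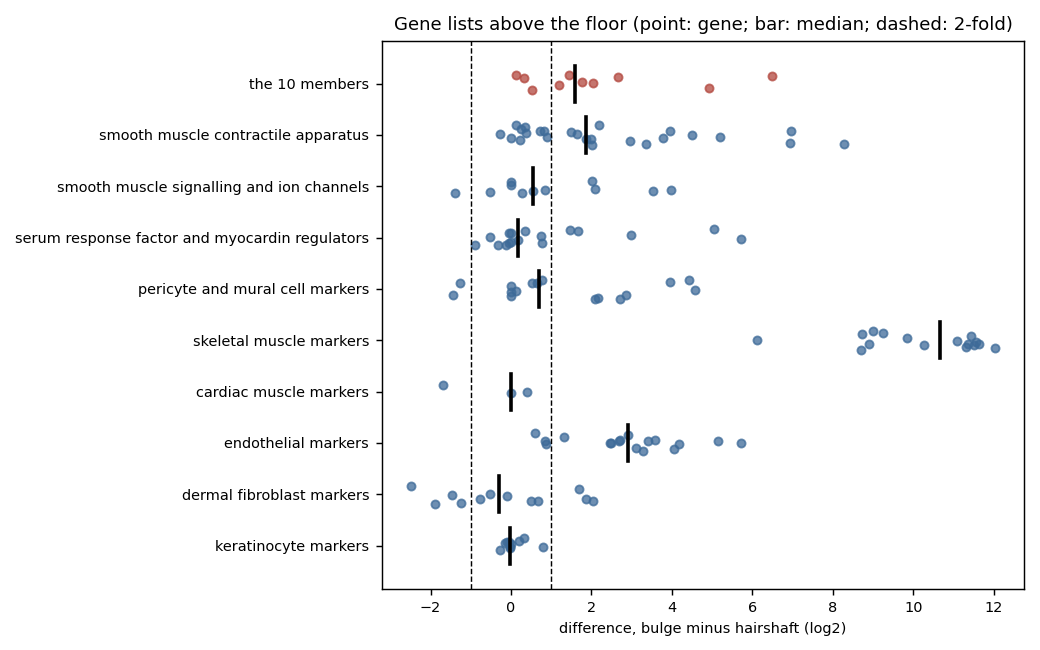
Difference between bulge and hairshaft (log2, x axis) of each gene above the floor (points) in the 10 members and 9 marker lists (rows), with the list median as a bar and the 2-fold limits dashed. The skeletal muscle list lies apart at a median of 10.67, the endothelial list at 2.92, the contractile list at 1.88 and the members at 1.60, with keratinocyte markers near 0.

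Most genes of the vessel lining were higher in the bulge. Of 17 endothelial markers, all were above the floor on at least 1 array and 13 on both. In the bulge, 14 were higher by 2-fold or more, a limit that 11.4% of all genes above the floor passed. The median was at least 2.92, since it is the value of a gene under the floor in the hairshaft. The summed linear signal was 2451 in the bulge, against 377 in the hairshaft. Aplnr, the apelin receptor, had 8.48 in the bulge, against 2.76 in the hairshaft. Pecam1 had 7.83 in the bulge, against 2.56 in the hairshaft, below the floor, and so was at least 35.6-fold higher. Fibroblast genes were split. Of 12, 3 (Mfap5, Dpt and Postn) were higher by 2-fold or more in the bulge and 4 (Col1a1, Eln, Col1a2 and Col3a1) in the hairshaft. For all genes the shares were 11.4% and 4.91%. The summed signal of the 12 was 50522 in the bulge, against 88910 in the hairshaft. All 8 adipocyte markers were higher by 8-fold or more in the bulge, against 3.02% of all genes, but only 4 were above the floor on both arrays. The adipocyte summed signals were 62893 in the bulge, against 180.1 in the hairshaft. The part of skeletal muscle, vessel and fat RNA in the members' differences and in the contractile and pericyte lists was not tested.

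**Figure D5:**
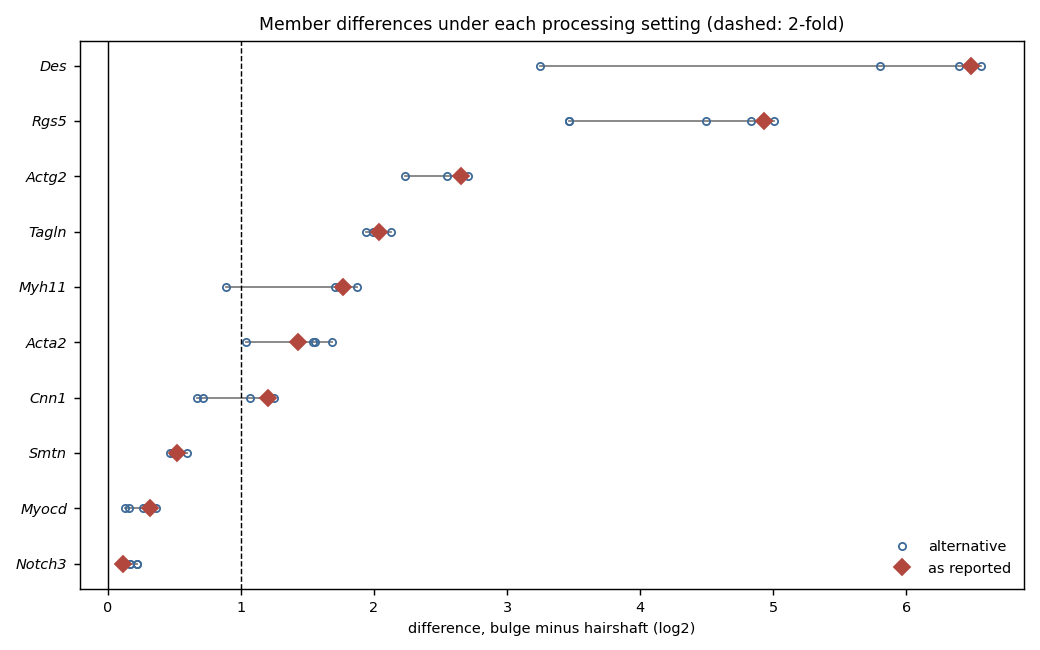
Difference between bulge and hairshaft (log2, x axis) of each member as reported (diamonds) and under each of up to 9 alternative settings (circles), with the 2-fold limit dashed. All values lie above 0; Cnn1 and Myh11 cross the 2-fold limit, and Des and Rgs5 spread most.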

How the data were processed

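Each sample is 1 expression array of amplified RNA from laser-cut tissue; per the labels' protocols, 30 ng of total RNA were amplified. The deposited log2 values were made with GCRMA, per the submitters' processing notes, and its version was not given in the sources used here; no genome build was named. Amplification and background correction can both change low values. The values themselves showed the log2 scale (2.23 to 15.36). An array has no depth, and the number of arrays limits the precision. There were 0 unmatched columns. A platform annotation gave 34958 probe sets 1 symbol, 932 several and 9211 none; Entrez identifiers brought 34754 symbols up to date with RefSeq. The floor replaced lower values, and a fold against it is written "at least". No test was run, since with 1 array each there were 0 residual degrees of freedom. Named were every probe set of the members, the families' genes, and up to 4 genes furthest apart in each other list (fewer, or none, where counts and sums describe another cell type); other genes were chosen after their values were seen. Members and the 21 lists were chosen with earlier results of these data known. The counting was tested on simulated data. There were 8 planned and 2 added alternatives. The tools were matplotlib 3.10.9, statsmodels 0.14.6, numpy 2.4.6 and pandas 2.3.3 under Python 3.11.15.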

Additional observations from a re-analysis of the deposited data

How the results depend on the processing

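Each of the 10 members kept the higher value in the bulge in all 87 values that the alternatives gave for single genes, and 5 of these moved by over 1.5-fold, each to a smaller difference: Des to 3.25 when its probe sets were averaged and to 5.80 after an offset of 16 on the linear scale, Myh11 to 0.88 and Rgs5 to 3.47 with the mean of probe sets, and Rgs5 to 3.47 with the mean of those above the floor. Every alternative reuses the same arrays, so the count of 87 is no independent support for the direction. Leaving out the floor or removing the median difference, which was 0, left every member's value unchanged. Cnn1 fell below 2-fold with the 99th percentile floor (0.71) and the offset (0.67). The number of genes higher by 2-fold or more in the bulge ran from 6 to 7 and the median difference from 1.12 to 1.77. The number of probe sets was 7 with plain probe sets only, which leaves out the suffixed sets and with them Actg2 and Smtn, against 11 as reported; under the other alternatives it was between 8 and 11. Removing a loess trend or the median difference, and quantile normalization, moved the median of all genes by at most 0.05. Of the list counts under alternatives, 365 stayed within 1.5 times the reported count and 13 did not. No paired analysis was possible because each structure has 1 array, and for the same reason no replicate could be left out. Signal over background limits Myocd, Cnn1 and 4 probe sets at or below the floor.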

Other observations

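Genes of the contact between the arrector pili and the follicle were measured as a further list. Npnt, nephronectin, a basement membrane protein of bulge cells to which the muscle attaches in mouse skin, had 7.51 in the bulge, against 7.15 in the hairshaft, a difference of 0.35. Itga8, the integrin chain with which the muscle binds nephronectin, had 7.47 in the bulge, against 5.95 in the hairshaft, 2.86-fold apart. Itga5, a fibronectin receptor chain of many mesenchymal cells, was 2.81-fold higher in the bulge. Of 11 genes in this list, 10 were above the floor, 2 (Itga8 and Itga5) were higher by 2-fold or more in the bulge and none was so in the hairshaft, against 11.4% and 4.91% of all genes; the median difference was 0.44. That count was 1 when probe sets were averaged and when plain ones alone were used. The ligand and its receptor chain thus had different sizes of difference on these arrays, which no replicate checks.

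Fras1, a basement membrane protein, was not above the floor on either array, and Egfl6, an upper follicle matrix protein, had 4.11 on both arrays. Tnnt2, the cardiac troponin T, went against the striated genes, with 5.78 in the bulge, against 7.49 in the hairshaft, 3.25-fold higher in the hairshaft; the other cardiac markers above the floor, Actc1 and Myl3, were under 2-fold apart.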
